A study of Mus musculus with 4 samples.

Results

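The 10 genes described here encode core members of the BCL2 family, the proteins that decide whether the outer membrane of mitochondria is opened during apoptosis. They were taken by symbol from the TruSeq gene counts, and all 10 were found among the 24421 genes in the files. The prosurvival proteins encoded by Bcl2, Bcl2l1 (BCL-XL) and Mcl1 hold the membrane closed, and the effectors encoded by Bax and Bak1 form the pores that release cytochrome c. The BH3-only proteins, here those of Bcl2l11 (BIM), Bbc3 (PUMA), Pmaip1 (NOXA), Bmf and Bid, carry a single BCL2 homology domain with which they bind prosurvival proteins or activate the effectors. Pluripotent cells are known to lie close to the threshold of this switch, and apoptosis removes many cells as embryoid bodies differentiate.

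The libraries came from R1, a line of mouse ESCs, with 2 replicates labelled Undiff and 2 labelled Day4. Undiff is described in the methods as R1 cells kept in growth medium with leukaemia inhibitory factor, and in the labels as embryoid bodies. Day4 is embryoid bodies that, according to the methods, were grown for 4 days without the cytokine. They then received retinoic acid (RA) for a further 4 days. The dose is 2 µM in the methods and in the series design, whereas the sample labels write it in millimolar units. The states share the line and differ in RA. By the methods they also differ in the cytokine, in aggregation and in days of culture, whereas the labels give embryoid bodies for both. The parts of these differences cannot be told apart. The replicates were grown and treated separately according to the methods and the labels name no allele or transgene in either group.

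Between 32099074 and 47730944 fragments were counted on genes per library, and the 2 replicates of each state differed by more than counting noise (chi-square per degree of freedom 5.71 in Undiff and 3.07 in Day4). In the pluripotency list all 8 genes were lower in Day4, and their summed level in CPM (counts scaled to a common library total) was 4546 and 4563 in the Undiff libraries against 26.2 and 21.0 CPM in those of Day4. Genes higher in Day4 were 6 of 6 for endoderm, 4 of 5 for mesoderm (Hand1 was lower) and 4 of 6 for blood cells (Gata1 and Ptprc were not called). For endothelium they were 2 of 4 (Cdh5 and Kdr, while Pecam1 and Tek were lower) and for fibroblasts 5 of 6 (Thy1 was lower). Higher and lower are here calls by the thresholds in the next paragraph, which 22.2% and 20.6% of all genes tested met. Their summed levels went from between 6.65 and 8.01 to between 549.0 and 558.8 CPM for endoderm, and from between 9.46 and 10.2 to between 387.7 and 398.3 CPM for mesoderm. The Day4 sum for endoderm was mostly Gata4 (9121 and 12652 counts) and Gata6 (10120 and 13116 counts). The other endoderm genes, Foxa2, Sox17, Afp and Ttr, had at most 211 counts in a Day4 library. The blood list went from between 3.57 and 3.61 to between 132.8 and 161.0 CPM, that of endothelium from between 162.5 and 164.6 to between 262.5 and 268.6 CPM, and that of fibroblasts from between 58.3 and 63.1 to between 1553 and 1710 CPM. Of the 6 neural genes, 2 were higher (Nes and Dcx) and 3 lower (Pax6, Sox1 and Tubb3) in Day4. Their sum was between 134.1 and 135.3 CPM in Undiff and between 147.4 and 161.7 CPM in Day4. Within it Dcx went from 2 and 1 counts to 961 and 1352, and Tubb3 from 2577 and 2151 to 191 and 230. Afp, an endoderm marker, had no count in either Undiff library. Ptprc, the general leukocyte marker, had only 2 and 5 counts in the Undiff libraries and none in either Day4 library. Most of these lists moved with the state in the only comparison, Day4 against Undiff, while neural and endothelium genes went both ways. The part of these lists in the results was not tested. In such bulk libraries, fewer cells of a type and less RNA per cell cannot be told apart.

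The members were tested for Day4 against Undiff with edgeR over all genes that had a count. To be called a differentially expressed gene (DEG), a gene needed an adjusted p of 0.05 or less, a change of 1 or more on the log2 scale in either direction, and a normalized count averaging 5 or more. Normalized counts are scaled by the TMM method to a common library size. Of the 10 members, 3 were DEGs higher in Day4 (Bcl2, Bcl2l1 and Bmf) and 3 were DEGs lower in Day4 (Mcl1, Pmaip1 and Bid). Among all 19891 genes tested, 22.2% were DEGs higher in Day4, 20.6% were DEGs lower and 42.8% were either, so that the members' counts lie near this background. The members' median log2 fold change was -0.11, compared with -0.03 over all genes tested. All 10 members reached the mean normalized count of 5, as did 16472 of all genes tested, whose median was 0.03. The percentages above also count the genes that did not reach it and so could not be DEGs. Both Day4 libraries lay on one side of both Undiff libraries for all 10 members, as they did for 85.4% of all genes.

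**Figure D1:**
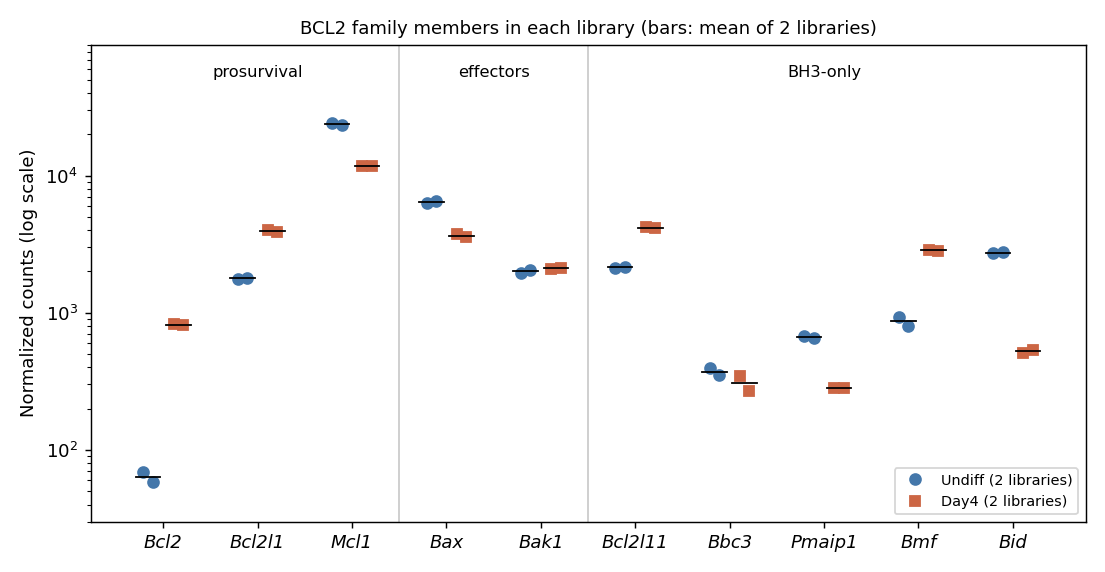
Normalized counts of the 10 BCL2 family members on a log axis, with 1 point per library, circles for the 2 Undiff and squares for the 2 Day4 libraries, and a bar at the mean of each pair. Bcl2 shows the widest gap upwards, from 68.8 and 58.6 to 822.1 and 813.1, and Bid the widest gap downwards, whereas the points of Bak1 and Bbc3 nearly touch.

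The prosurvival genes moved in opposite directions. Bcl2 (chromosome 1, 106538178 to 106714274 of GRCm38, minus strand), the founding member of the family, had 68.8 and 58.6 normalized counts in the Undiff libraries, replicate 1 first as in all later pairs. The Day4 libraries had 822.1 and 813.1. Each Day4 library was far above each Undiff library, a 12.7-fold rise (log2 fold change 3.67, standard error 0.11, adjusted p = 2.8e-12). Bcl2l1 (chromosome 2, 152780668 to 152831728, minus strand), which encodes BCL-XL, had 1776 and 1789 normalized counts in Undiff and 3980 and 3865 in Day4. The gene rose 2.20-fold (log2 fold change 1.14, standard error 0.05, adjusted p = 8.4e-11), with a gap between the states many times the spread of the replicates. Mcl1 (chromosome 3, 95658788 to 95663176, plus strand) encodes a short-lived prosurvival protein that early embryos need. It had 24219 and 23431 normalized counts in Undiff and 11710 and 11719 in Day4. The fall of 2.03-fold (log2 fold change -1.02, standard error 0.04, adjusted p = 2.0e-11) was clear of the replicate spread but only just past the minimum fold change, and with library totals in place of TMM the log2 fold change was -0.96 and Mcl1 was no DEG. Tested against a fold change of 2 itself, its adjusted p was 0.22. Bcl2l1 and Mcl1 each give rise to a long prosurvival and a short proapoptotic splice form, which the gene counts do not separate. The antisense gene D630008O14Rik overlaps 558 bases of Bcl2 exons in the annotation, and Bcl2 counts are uncertain to that extent if strand was ignored in counting.

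The effectors differed from each other in how far they moved. Bax (chromosome 7, 45461697 to 45466898, minus strand) had 6260 and 6471 normalized counts in Undiff and 3722 and 3580 in Day4. It was 1.74-fold lower (log2 fold change -0.80, standard error 0.05, adjusted p = 1.5e-09), a gap wider than the replicates' spread that did not reach the fold required of a DEG. Bak1 (chromosome 17, 27019810 to 27029009, minus strand), whose protein sits in the mitochondrial membrane of healthy cells, had 1949 and 2059 normalized counts in Undiff and 2074 and 2135 in Day4. The states lay next to each other without overlap, and the difference did not pass (log2 fold change 0.07, standard error 0.05, adjusted p = 0.23). Bak1 shares exonic bases with Ggnbp1 on the opposite strand (437 and 177 bases for the 2 annotated entries of that symbol), and Bax shares 192 with another annotated gene on its own strand, so that both counts carry this uncertainty.

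Among the BH3-only genes, those of BIM and BMF were higher in Day4 and those of BID and NOXA were lower. Bmf (chromosome 2, 118528757 to 118549687, minus strand), whose protein is held on the actin cytoskeleton in attached cells, had 930.6 and 798.1 normalized counts in Undiff and 2879 and 2839 in Day4. The rise of 3.30-fold (log2 fold change 1.72, standard error 0.07, adjusted p = 3.1e-11) was well beyond the spread of the Undiff replicates. Bcl2l11 (chromosome 2, 128126038 to 128162547, plus strand), which encodes BIM, a direct activator of the effectors, had 2104 and 2172 normalized counts in Undiff and 4215 and 4113 in Day4. At 1.95-fold (log2 fold change 0.96, standard error 0.05, adjusted p = 4.2e-10) it was higher beyond the replicate error and missed the minimum for a DEG, which it reached with library totals as the scaling (log2 fold change 1.03).

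Bid (chromosome 6, 120891930 to 120916853, minus strand), whose protein is cut by caspase-8 and so links death receptors to mitochondria, had 2732 and 2763 normalized counts in Undiff and 510.8 and 535.1 in Day4. This fall of 5.24-fold (log2 fold change -2.39, standard error 0.06, adjusted p = 3.7e-13) was the largest decrease among the 10 members. Bid overlaps Bcl2l13 on the opposite strand by 628 exonic bases. Bcl2l13 itself had more counts in Day4 (3618 and 3395 normalized counts in Undiff, 6470 and 6363 in Day4). Pmaip1, which encodes NOXA, a selective partner of MCL1, had 671.1 and 654.5 normalized counts in Undiff and 283.1 and 281.8 in Day4. It fell 2.35-fold (log2 fold change -1.23, standard error 0.08, adjusted p = 8.1e-09). Bbc3 (chromosome 7, 16308393 to 16318205, plus strand), which encodes PUMA, a target of p53, had 393.9 and 350.6 normalized counts in Undiff and 347.9 and 267.2 in Day4. One Day4 library lay just below the lower Undiff library, and the call without a minimum fold change (log2 fold change -0.30, standard error 0.12, adjusted p = 0.040) depended on single libraries. The value was -0.13 without Day4 replicate 2 (adjusted p = 0.38) and -0.21 without Undiff replicate 1 (adjusted p = 0.18), whereas it was -0.48 without Day4 replicate 1 (adjusted p = 0.0030) and -0.38 without Undiff replicate 2 (adjusted p = 0.013). With DESeq2 and with library totals the adjusted p was 0.11.

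With no minimum fold change, 4 members were higher in Day4 (Bcl2, Bcl2l1, Bmf and Bcl2l11) and 5 lower (Mcl1, Bax, Bbc3, Pmaip1 and Bid), against 36.7% and 35.2% of all genes tested. When single libraries were removed, log2 fold changes stayed between 3.57 and 3.80 for Bcl2, between 1.12 and 1.14 for Bcl2l1, between -1.06 and -1.0 for Mcl1, and between -2.46 and -2.36 for Bid, and the 6 members called as DEGs stayed 3 higher and 3 lower.

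To set the members beside each other, counts were divided by the length of the annotated coding-transcript exons of each gene, which gives TMM-scaled CPM per kilobase. On this scale Bax and Mcl1 were highest in both states, with means in Undiff of 196.1 ± 4.60 for Bax and 186.2 ± 4.35 for Mcl1, and in Day4 of 112.5 ± 3.09 for Bax and 91.6 ± 0.0506 for Mcl1 (SD, n = 2 each). In Undiff they were followed by Bid (33.5), Bak1 (22.4), Bcl2l1 (12.2), Bcl2l11 (8.28), Pmaip1 (6.48), Bbc3 (5.48), Bmf (4.78) and Bcl2 (0.186), all as mean CPM per kilobase. The step from Bbc3 to Bmf, with SDs of 0.451 and 0.518, was of the order of their spread. In Day4 the order after Bax and Mcl1 was Bcl2l1 (27.0), Bak1 (23.5), Bcl2l11 (16.1), Bmf (15.8), Bid (6.38), Bbc3 (4.53), Pmaip1 (2.76) and Bcl2 (2.38). Bcl2l11 and Bmf differed there by about the SD of Bcl2l11 (0.279). Bcl2 was last in both states on these lengths. With the longest coding transcript of each gene as the length, a choice made after seeing the data, it was last in Undiff (0.237), while in Day4 it lay above Pmaip1 (3.04 against 2.77).

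Within the prosurvival trio, Mcl1 made up 93.8% and 93.6% of the summed level per kilobase in Undiff and 75.5% and 76.0% in Day4. Bcl2l1 made up 6.05% and 6.29% in Undiff and 22.6% and 22.0% in Day4, whereas Bcl2 went from 0.0995% and 0.0874% to 1.98% and 1.97%. The ratio of Mcl1 to Bcl2l1, which does not depend on the scaling between libraries, was 15.5 and 14.9 in Undiff and 3.35 and 3.45 in Day4. These shares and ratios depend on the length chosen. With the longest coding transcripts the mean share of Mcl1 was 90.8% in Undiff and 67.6% in Day4, and that of Bcl2l1 was 9.05% and 30.1%. The ratio of Mcl1 to Bcl2l1 was then 10.2 and 9.84 in Undiff and 2.21 and 2.28 in Day4.

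Among the members, the BH3-only genes exchanged their leading gene. Bid held 56.5% and 58.0% of their summed level per kilobase in Undiff and 13.4% and 14.6% in Day4. Bcl2l11 went from 13.8% and 14.5% to 35.2% and 35.5%, and Bmf from 8.72% and 7.60% to 34.3% and 35%. These shares, and the sums and ratios below, leave out Bad, Hrk and Bik, BH3-only genes outside the members. Bad had 7.80 and 7.13 CPM in Undiff and 37.1 and 34.3 CPM in Day4, over 2393 exon bases. For Bmf these values were 24.35 and 20.78 CPM, and 78.84 and 77.48 CPM, over 4831 exon bases. The longest coding transcripts have 1533 bases for Bad and 4642 for Bmf. In Day4 Bad was thus close to Bmf per kilobase of exons, and above it per kilobase of the longest transcripts. With the longest coding transcripts the mean share of Bid was 54.2% in Undiff and 12.2% in Day4, and that of Bcl2l11 was 18.4% and 42.3%. The ratio of Bcl2l11 to Bid per kilobase was 0.244 and 0.249 in Undiff and 2.62 and 2.44 in Day4, and with the longest coding transcripts 0.335 and 0.342 against 3.59 and 3.34. The sum of the prosurvival members was 201.7 and 195.6 CPM per kilobase in Undiff and 121.3 and 120.5 in Day4. It leaves out Bcl2l2, another prosurvival gene, with means of 4.56 CPM per kilobase in Undiff and 7.26 in Day4. The sum of the effector members was 214.7 and 222.4 against 137.9 and 134.2, and that of the BH3-only members 59.0 and 58.1 against 46.4 and 44.9. The effector sum was 1.06 and 1.14 times the prosurvival sum in Undiff and 1.14 and 1.11 times in Day4, and the states overlapped. With the longest coding transcripts it was 1.03 and 1.10 times in Undiff and 1.01 and 0.995 times in Day4, without overlap, so that this comparison turns on the length chosen. For the BH3-only sum the ratio was 0.292 and 0.297 in Undiff and 0.382 and 0.372 in Day4, without overlap. The sums, shares and ratios are of RNA, say nothing of protein and were not tested.

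**Figure D2:**
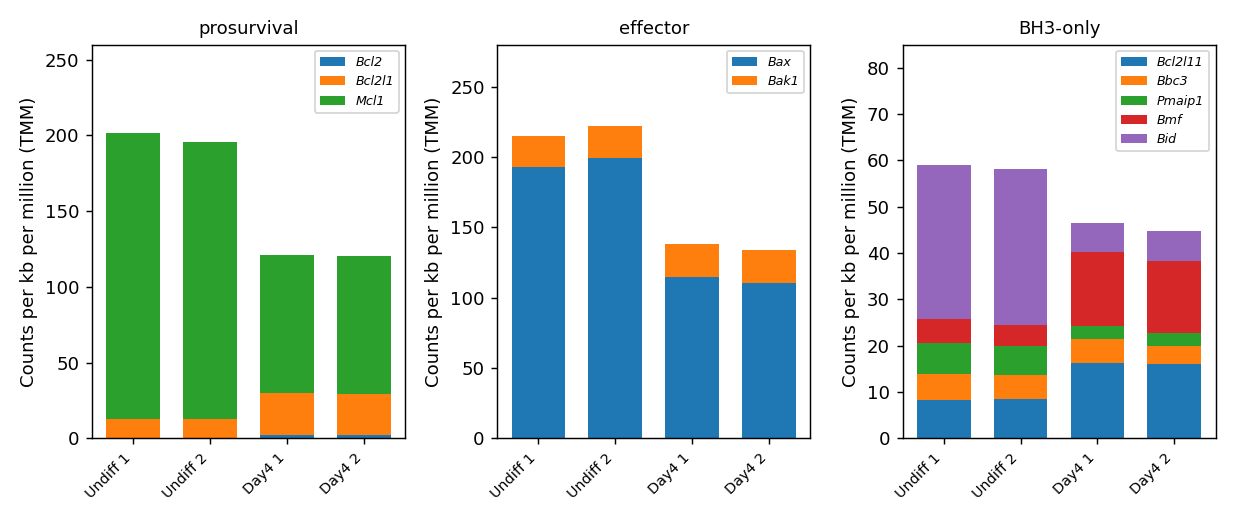
TMM-scaled CPM per kilobase of the members, stacked in 1 bar per library for the prosurvival, effector and BH3-only genes, on linear axes that start at 0 and differ between panels. Mcl1 fills most of the prosurvival bars and Bax most of the effector bars in all 4 libraries, and Bid gives way to Bmf and Bcl2l11 in the BH3-only bars of Day4.

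The promoters of 4 called members are shown, chosen after their values were seen, because these genes moved furthest in either direction or, for Mcl1, had the most counts. Each run holds the 250 bases before the most upstream RefSeq start on GRCm38.p6, written 5′ to 3′ on the strand of the gene, with matches in either orientation in capitals. The GC box was searched as GGGCGG, the E-box as CACGTG and the cyclic AMP response element as TGACGTCA. The CCAAT box was searched by its name, the retinoid receptor half-site as AGGTCA, the core of FoxO sites as TAAACA and the TATA box as TATAAA. No motif contains another.

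Bcl2, chr1:106714291-106714540, minus strand: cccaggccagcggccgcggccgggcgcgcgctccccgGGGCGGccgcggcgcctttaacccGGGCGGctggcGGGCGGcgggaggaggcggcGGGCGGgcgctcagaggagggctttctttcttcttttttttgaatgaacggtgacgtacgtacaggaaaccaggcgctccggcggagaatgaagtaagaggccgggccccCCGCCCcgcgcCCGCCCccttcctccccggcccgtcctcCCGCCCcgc

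Mcl1, chr3:95658471-95658720, plus strand: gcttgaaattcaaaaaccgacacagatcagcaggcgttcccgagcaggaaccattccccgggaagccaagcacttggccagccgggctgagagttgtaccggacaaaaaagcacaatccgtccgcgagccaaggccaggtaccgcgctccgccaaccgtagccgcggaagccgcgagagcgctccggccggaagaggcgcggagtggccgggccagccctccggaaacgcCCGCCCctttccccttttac

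Bmf, chr2:118549687-118549936, minus strand: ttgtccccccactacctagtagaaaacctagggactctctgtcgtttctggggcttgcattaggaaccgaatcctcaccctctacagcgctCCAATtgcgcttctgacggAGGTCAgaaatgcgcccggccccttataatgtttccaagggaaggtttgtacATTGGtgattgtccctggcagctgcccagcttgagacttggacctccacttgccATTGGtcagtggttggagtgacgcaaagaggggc

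Bid, chr6:120916825-120917074, minus strand: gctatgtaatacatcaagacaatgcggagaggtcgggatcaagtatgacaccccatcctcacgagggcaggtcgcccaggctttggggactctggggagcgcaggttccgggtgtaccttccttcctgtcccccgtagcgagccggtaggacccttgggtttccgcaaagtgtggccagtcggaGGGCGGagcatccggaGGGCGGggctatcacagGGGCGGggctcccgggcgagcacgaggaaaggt

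In these windows GC boxes were counted 7 times before Bcl2, 3 times before Bid and 1 time before Mcl1, while that of Bmf held 3 CCAAT boxes and 1 retinoid receptor half-site. Windows were given for 9 of the 10 members, and for some of these at several starts. A GC box was present for 6 of the 9 (Bcl2, Mcl1, Bax, Bcl2l11, Bbc3 and Bid), compared with 35.4% of the 27025 genes with a window. The retinoid receptor half-site was present for 2 (Bcl2l1 and Bmf), compared with 15.8% of genes, and the E-box for 2 (Bax and Bbc3), compared with 6.86%. The CCAAT box was found for 3 members (37.5% of genes), the FoxO core for 2 (13.5%), and the TATA box and the cyclic AMP response element for 0 of the 9 (14.3% and 1.77% of genes). Genes with several starts had more windows in which to hold a motif. The members with a GC box include genes that were higher and genes that were lower in Day4. A match describes letters in the window and is not a bound site.

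Other genes of the family were measured in the same libraries. Among the other prosurvival genes, Bcl2l2, which encodes BCL-W, had 731.5 and 660.5 normalized counts in Undiff and 1120 and 1096 in Day4, with no overlap between the states (log2 fold change 0.67, standard error 0.07, adjusted p = 9.7e-07) and no DEG call. Bcl2l10 had 19 and 12 counts in Undiff and 1 and 0 in Day4 and was a DEG lower in Day4, with so few counts that no fold change is given. The near-identical genes Bcl2a1a, Bcl2a1b and Bcl2a1d, which uniquely aligned reads measure poorly, had at most 1 count in any library.

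Bad, a BH3-only gene whose protein is held inactive by growth factor signalling, rose from 298.0 and 274.0 to 1355 and 1255 normalized counts, with both Day4 libraries far above Undiff (log2 fold change 2.18, standard error 0.08, adjusted p = 1.8e-11). It overlaps Gpr137 on the opposite strand by 524 bases. Hrk, a BH3-only gene best known from neurons, fell from 84.4 and 81.4 to 14.6 and 23.0 normalized counts (log2 fold change -2.09, standard error 0.26, adjusted p = 5.4e-06). Bok, an effector relative, had 700.3 and 641.3 normalized counts in Undiff and 502.5 and 447.6 in Day4 (log2 fold change -0.51, adjusted p = 9.4e-05), and was no DEG. Bik overlapped between the states at between 43.9 and 61.0 normalized counts.

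Of the 6 more distant relatives, 1 was a DEG higher and 1 a DEG lower in Day4 (22.2% and 20.6% of all genes). Bcl2l14 fell from 330.3 and 293.1 to 5.22 and 6.14 normalized counts (log2 fold change -5.73, standard error 0.23, adjusted p = 4.7e-11), the widest change among the family genes above the floor of 3 counts. Bnip3l (NIX), a receptor for the removal of mitochondria, rose from 5626 and 4927 to 11003 and 10535 normalized counts (log2 fold change 1.03, standard error 0.06, adjusted p = 1.2e-09). Its call was lost in 7 of the 13 alternatives, DESeq2 among them with a log2 fold change of 0.99. Its paralogue Bnip3 had 6058 and 4118 normalized counts in Undiff, a wide gap between replicates, and 3566 and 3528 in Day4. Bcl2l12 and Bcl2l13 had log2 fold changes of 0.63 and 0.87 (standard errors 0.10 and 0.05) and were no DEGs, and Bcl2l15 had at most 9 counts in any library.

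**Figure D3:**
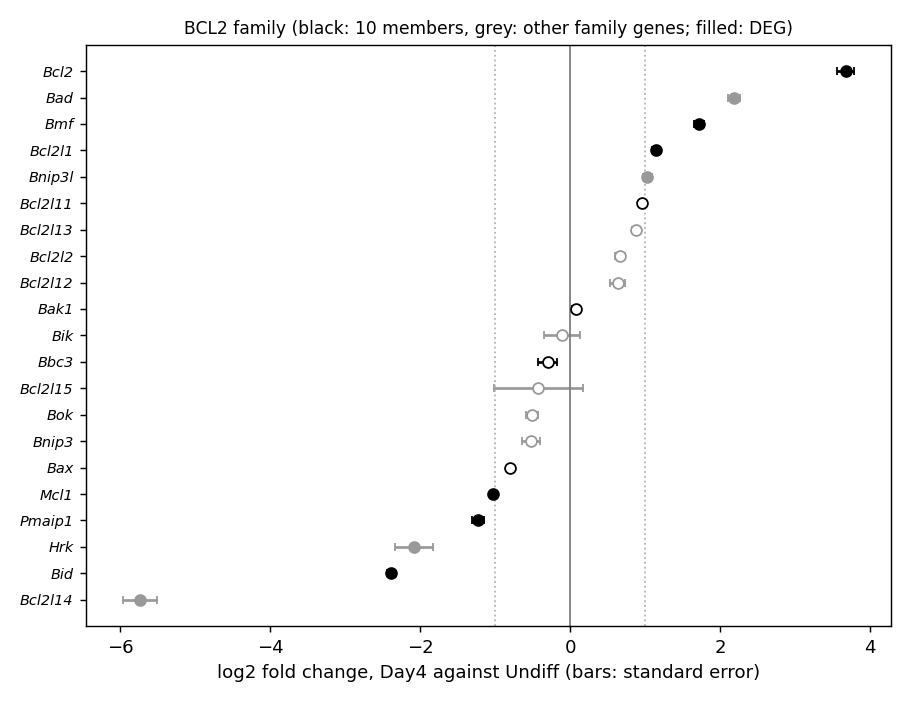
Log2 fold changes of Day4 against Undiff with standard errors, for the 10 members (black) and the other family genes above the floor (grey), with filled points for DEGs and dotted lines at -1 and 1. Bcl2 lies furthest to the right at 3.67 and Bcl2l14 furthest to the left at -5.73, and open points between the dotted lines include Bax, Bak1, Bbc3 and Bcl2l11.

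Downstream of the family, cytochrome c meets APAF1 and caspase-9, and the effector caspases follow. Of 20 genes of this machinery, 3 were DEGs higher in Day4 and 0 were DEGs lower with edgeR (22.2% and 20.6% of all genes), with a median log2 fold change of 0.07. Without the fold requirement, 8 were higher and 7 lower at an unadjusted p under 0.05 (38.5% of all genes in each direction), and DESeq2 called 2 higher and 1 lower (Cycs, cytochrome c). Casp6, an effector caspase, rose from 357.4 and 315.9 to 1752 and 1808 normalized counts (log2 fold change 2.4, standard error 0.07, adjusted p = 3.1e-12). Casp2 rose by 1.20 on the log2 scale (standard error 0.05, adjusted p = 6.2e-11). Chosen after their values were seen, Cycs (-0.98), Birc5 (-0.95), Casp9 (0.91) and Xiap (0.92) were those just under the minimum fold change, and Apaf1 had a log2 fold change of 0.39.

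The death receptor pathway starts at ligands of the TNF family and reaches mitochondria through caspase-8 and BID. Of its 10 genes, 7 were DEGs higher in Day4 and 0 were DEGs lower with edgeR and with DESeq2, where edgeR called 22.2% and 20.6% of all genes. At an unadjusted p under 0.05, 7 were higher and 1 lower (38.5% of all genes in each direction). The median log2 fold change was 1.91. Tnfrsf1a, the main receptor of TNF, rose from 210.5 and 235.7 to 1994 and 1946 normalized counts (log2 fold change 3.15, standard error 0.08, adjusted p = 3.0e-13). Casp8 rose from 135.5 and 150.8 to 949.5 and 990.4 normalized counts (log2 fold change 2.77, standard error 0.09, adjusted p = 7.0e-12), and Fadd, the adaptor between receptor and caspase, from 192.8 and 195.0 to 915.1 and 932.1 (log2 fold change 2.25, standard error 0.08, adjusted p = 2.0e-11). Outside the rule for named genes, the other DEGs were Cflar, an inhibitor of caspase-8, with a log2 fold change of 2.10, Fas (2.09), Ripk1 (1.72) and Tradd (1.5). The ligands Fasl and Tnfsf10 had at most 8 counts in any library, and Tnfrsf10b had a log2 fold change of -0.76.

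Bax, Bbc3 and Pmaip1 are known targets of p53. Of 16 genes for p53, its relatives and its targets, 2 were DEGs higher and 6 were DEGs lower in Day4 (22.2% and 20.6% of all genes), with a median log2 fold change of -0.57. At an unadjusted p under 0.05, 4 were higher and 12 lower (38.5% of all genes in each direction). Trp53 itself had 12005 and 13412 normalized counts in Undiff and 8806 and 8896 in Day4, which was lower by the test (log2 fold change -0.52, standard error 0.05, adjusted p = 4.7e-07) and no DEG. The log2 fold changes of Trp73, Perp and Gadd45a were -4.28, -2.49 and -1.88 (standard errors 0.26, 0.07 and 0.08), and Mdm4, Sesn2 and Aen had log2 fold changes of -1.08, -1.06 and -1.01. Sesn1, an antioxidant target, rose by 1.79 (standard error 0.06, adjusted p = 1.4e-11), and the other DEG higher in Day4 was Trp63, with at most 73 counts in a library. Cdkn1a, the p53 target that halts the cell cycle, had a log2 fold change of 0.21.

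Of 11 genes that are known to act on the members' transcription, location or turnover, 1 was a DEG higher and 3 were DEGs lower in Day4 (22.2% and 20.6% of all genes), with a median log2 fold change of -0.41. Foxo3, a transcription factor for Bcl2l11 and Bbc3, rose from 435.6 and 330.2 to 1466 and 1473 normalized counts (log2 fold change 1.93, standard error 0.09, adjusted p = 2.9e-10). The log2 fold change of Myc was -1.49 (standard error 0.08), that of Atf4, a stress factor that acts on Pmaip1, -1.35 (standard error 0.04), and that of Usp9x, which protects MCL1 protein from degradation, -1.17 (standard error 0.04), with adjusted p-values of 9.0e-10, 4.5e-12 and 7.1e-12. Over all 72 genes of the lists outside the members, 15 were DEGs higher and 12 were DEGs lower in Day4, near the 22.2% and 20.6% over all genes.

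**Figure D4:**
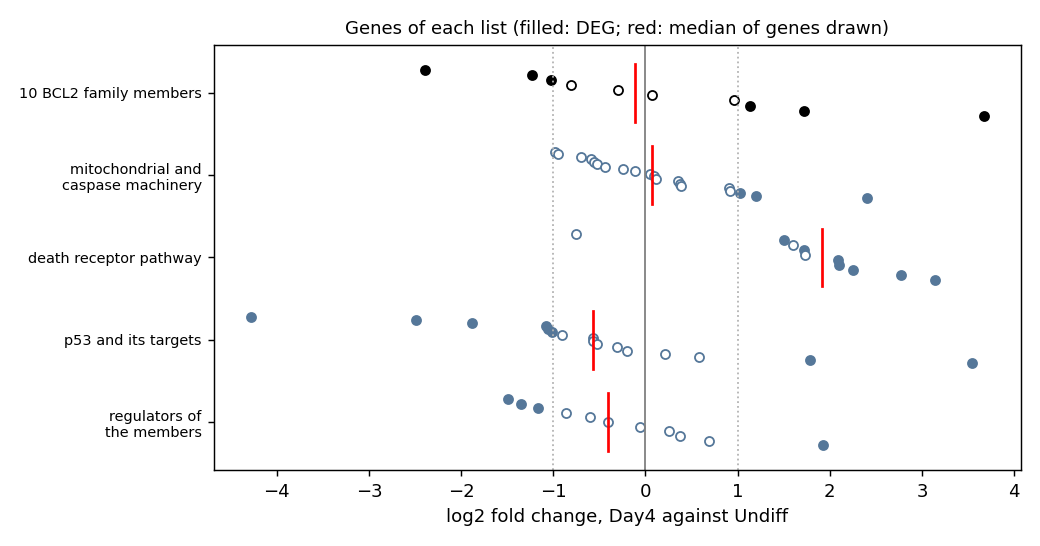
Log2 fold changes of Day4 against Undiff for every gene with a count in 5 lists, filled for DEGs, with the list median in red and dotted lines at -1 and 1. The death receptor genes lie mostly to the right (median 1.91), whereas the members spread on both sides of 0 (median -0.11).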

How the data were processed

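For the paired-end TruSeq libraries the authors used cutadapt for trimming, STAR 2.4.2a for alignment to mm10 and htseq-count for fragments per gene, according to the methods and the submitters' processing notes. The deposited values are raw counts per gene symbol, 1 file per library. Lines for fragments on no gene (7.50% to 13.2%) or on several genes (1.84% to 1.91%) were left out of totals and tests. These are shares of the fragments counted on a gene, on no gene or on several genes in a library. The labels name both a TruSeq v2 kit and a strand-specific kit with ribosomal RNA removal. In the methods, gene counting took account of strandedness and only Direct RNA is named as strand-specific, and exons of TruSeq libraries were counted without strand. The option for TruSeq gene counts is not spelled out.

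The 19891 genes with a count were fitted with edgeR 4.0.16 in R 4.3.3 (TMM, glmQLFit with legacy set to FALSE, glmQLFTest), without a replicate term, with Benjamini-Hochberg adjustment over all of them. The form with legacy set to FALSE was chosen after the data were seen, because the default form gave an infinite prior and far smaller p-values, and the default was kept as an alternative. The study used DESeq2, here an alternative, and its DEG thresholds were kept. The standard error is the log2 fold change divided by the square root of F. With 2 libraries per state an exact two-sided permutation test cannot go below p = 0.333, so the adjusted p-values draw on a dispersion estimated jointly over genes. The script was tested on simulated data. The standard errors draw on the dispersion fitted to the replicates, and the ± values are SDs between replicates. The floor of 3 counts covers counting error only.

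Members and lists were chosen with earlier results of these data known. The rule for named genes took the members, the other family genes and, per list, up to 3 DEGs in each direction with a mean of at least 1 CPM. Some genes of the lists enter the counts and medians but are not reported here by name. Positions, lengths and overlaps are from GENCODE vM21 (GRCm38) by symbol, a different annotation from the one counted on, and promoter sequences are from RefSeq. DESeq2 1.42.0, other scalings and filters, a replicate block and the removal of each library were the alternatives.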

Additional observations from a re-analysis of the deposited data

How the results depend on the processing

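The members called as DEGs were 3 higher and 3 lower in Day4 under most of the 13 alternatives. With library totals 4 were higher and 2 lower, with a test against a fold change of 2 the number lower was 2, and with no minimum fold change 5 members were lower. In the other lists the DEGs were 28 higher and 31 lower with no minimum fold change, in place of 15 and 12. That alternative only removes the criterion, and without it 36.7% of all genes tested were higher and 35.2% lower. Leaving out each library in turn gave 3 and 3 members, and 13 to 15 higher and 12 to 13 lower genes in the other lists. With single libraries left out, the log2 fold change of Bik ranged from -0.31 to 0.10, changing sign without Undiff replicate 2 (0.098) and without Day4 replicate 1 (0.001), and that of Bcl2l15 from -1.10 to 0.14, changing sign without Day4 replicate 2 (0.138), all with adjusted p-values above 0.05. With a replicate block, 3 members were higher and 3 lower, and 15 and 12 genes of the other lists. The methods do not say whether an Undiff and a Day4 replicate of the same number came from a shared culture. The differences between replicates 1 and 2 in the states had a correlation of -0.00079 over 13318 genes. The legacy form of the edgeR fit, added after seeing the data, gave the same 3 and 3. The scalings shifted the median log2 fold change of all genes by -0.04 and 0.07. Depth limits Bcl2l10, Bcl2l15 and the Bcl2a1 genes, which had at most 19 counts per library.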
